A study of Mus musculus with 10 samples.

Results

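The CCN genes encode a small family of secreted matricellular proteins, which sit in the extracellular matrix and regulate cells rather than building fibres. The family was taken as the 5 gene symbols Cyr61, Ctgf, Nov, Wisp1 and Wisp2 (newer names Ccn1 to Ccn5), of 48397 symbols in the deposited tables, and all 5 were found under the older names. The study profiled RNA of the left atrium in 5 libraries from wild-type mice whose transverse aorta had been constricted 2 weeks earlier (TAC), an operation that loads the heart with pressure. It set them against 5 libraries from wild-type mice 2 weeks after sham surgery (Sham). Both groups were operated on at 2 months of age and were male C57BL/6J mice per the series' design text. That text gives the left appendage as the tissue, while the labels of the samples give the left atrium. No label ties a library to a separate animal, so p-values measure the spread between these libraries, which may be partly technical.

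CCN proteins share a modular build with an insulin-like growth factor binding domain, a von Willebrand type C domain, a thrombospondin repeat and, in all but WISP2, a C-terminal cystine knot. They bind integrins, heparan sulphate proteoglycans and growth factors. Cyr61 and Ctgf are known as rapidly inducible genes that respond to stretch, to TGF-beta and to the YAP and TAZ co-activators acting through TEAD factors, and Ctgf is widely used as a marker of cardiac fibrosis. Wisp1 and Wisp2 were named for their induction by WNT signalling in mouse mammary cells.

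The family split after TAC. Wisp2, Nov and Wisp1 rose, Cyr61 fell, and Ctgf, the most abundant member, did not pass the test. Of the 5 members, all of which were tested, 3 were called higher and 1 lower by edgeR (Benjamini-Hochberg adjusted p below 0.05, used throughout). Such calls were common in this comparison, where 28.9% of 15175 tested genes were called higher, 27.9% lower and 56.8% in either direction. The groups did not overlap for 4 of the 5 members, against 41.7% of all tested genes. TAC lay wholly above Sham for 3 of them, against 21.5% of all tested genes, and wholly below for 1, against 20.2%. The number of called members is therefore not unusual, and the description below rests on the direction and size of each member's change. Levels are CPM, which are counts relative to library size, scaled by TMM factors, and fold changes are TAC over Sham on the log2 scale with their standard errors (SE).

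**Figure D1:**
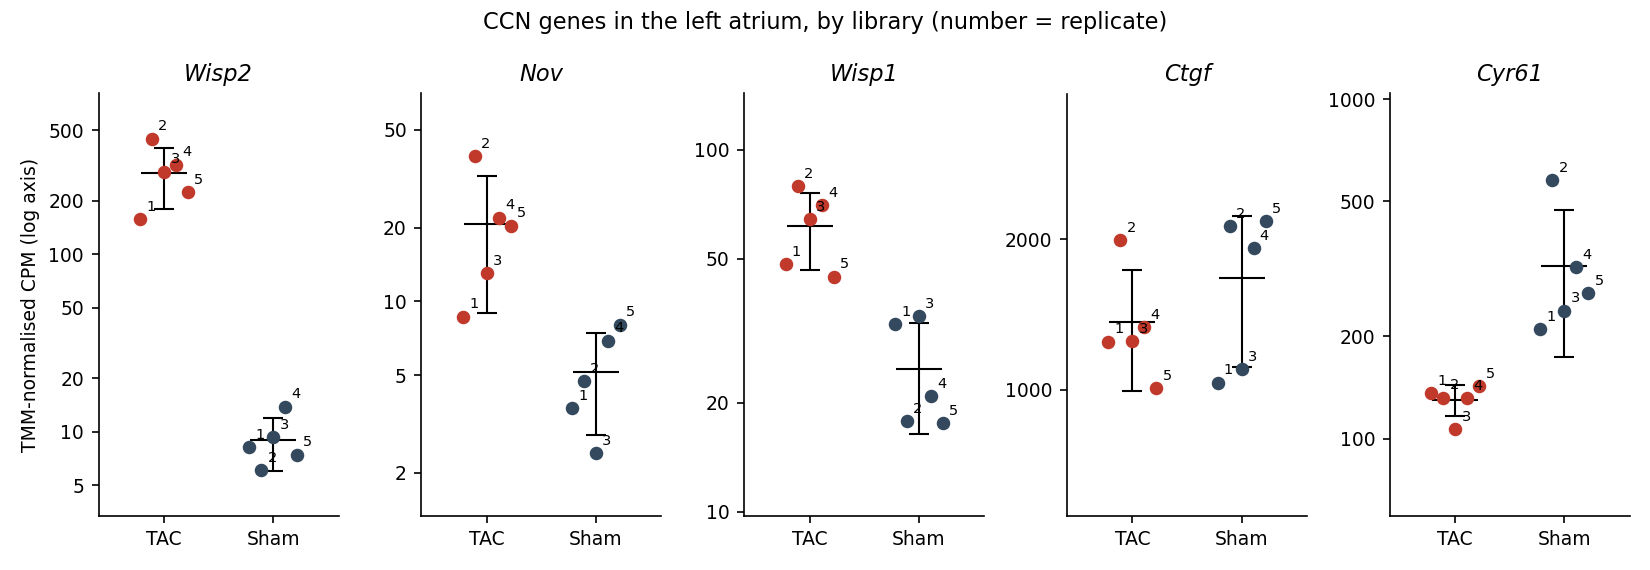
TMM-normalised CPM (log axis, a separate scale for each gene) of the 5 CCN genes in each TAC and Sham library; points are libraries with their replicate numbers, and bars give the mean ± SD of 5. The groups are apart for Wisp2, Nov, Wisp1 and Cyr61 and overlap for Ctgf.

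Each library held between 17117306 and 43956384 counts in genes, with Sham replicates 1 and 2 below all others. Markers of atrial muscle were abundant in every library, with a summed level of 19317 to 24050 CPM in TAC and 28927 to 32149 CPM in Sham. Of 7 such markers 1 rose and 4 fell (median log2 fold change -1.12). The one that rose, Nppa, is a large part of the TAC sum, with an average of 9834 CPM in TAC and 5663 CPM in Sham. The ventricular myosin light chain gene Myl2 lay between 1.82 and 10.1 CPM in TAC and between 0.881 and 218 CPM in Sham, where replicate 5 stood apart. Myh7, another ventricular marker, was higher than Myl2 in every TAC library. It lay at 177 to 322 CPM in TAC and 354 to 769 CPM in Sham. Not all markers of this list were higher than Myl2, and Hey2 lay within the Myl2 range in TAC, at 2.07 to 2.85 CPM. Of 4 tested ventricular markers 1 rose and 2 fell (median -0.65). Their list summed to 195 to 562 CPM in TAC and 393 to 1310 CPM in Sham. All 10 cardiomyocyte markers fell (median log2 fold change -1.18), and all 9 macrophage markers (1.66) and all 8 proliferation markers (5.52) rose. All 5 tested adipocyte markers fell (median -3.48), with a summed level of 0.523 to 19.1 CPM in TAC and 22.6 to 75.9 CPM in Sham. With counts scaled by library size alone, 7 of the 10 cardiomyocyte and 3 of the 5 adipocyte markers fell. Of 9 smooth muscle and pericyte markers 5 rose and 1 fell (median 0.56), and their summed level was 682 to 927 CPM in TAC and 409 to 522 CPM in Sham. Of 10 endothelial markers 4 rose and 2 fell (median 0.10), and of 8 epicardial and mesothelial markers 1 rose and 0 fell (median 0.32). Of 11 fibroblast markers 6 rose and 2 fell (median 1.09), with the collagen gene Col3a1 up by 2.91 (SE 0.24) and Gsn, which encodes gelsolin, at -1.71 (SE 0.21). Summed CPM of the fibroblast markers was 6998 to 13470 in TAC and 5037 to 6946 in Sham. The higher sum in TAC lay largely in collagen genes. Col3a1 averaged 3431 CPM in TAC and 457 CPM in Sham, and Col1a2 averaged 1744 CPM in TAC and 272 CPM in Sham. The 2 markers that fell, Gsn and Dcn, averaged 1000 and 903 CPM in TAC, against 3264 and 1195 CPM in Sham. None of the markers in these lists was at 0 in all libraries. In such bulk tissue more cells of a type and more RNA per cell cannot be told apart, and the part of cell composition in the changes below was not tested.

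Wisp2, whose product lacks the C-terminal domain of its relatives and is known to affect the growth of smooth muscle cells, had the largest change of the family. Wisp2 stood at 157, 447, 293, 319 and 223 CPM in TAC replicates 1 to 5, against 8.19, 6.07, 9.30, 13.9 and 7.43 CPM in Sham replicates 1 to 5. The groups were far apart, and even the lowest TAC library was well above the highest Sham library. The log2 fold change was 4.98 (SE 0.33, edgeR adjusted p = 1.3e-06), a fold of 31.6 with a 95% interval of 19.3 to 52.0. Of the 15175 tested genes, 81 had a log2 fold change at or above that of Wisp2, itself included. The change did not rest on few reads, since Wisp2 had 53950 counts over the TAC libraries and 1270 over the Sham libraries. The gene lies on chromosome 2, 163820861 to 163833146 (GRCm38, plus strand), and shares no exonic base with another annotated gene.

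Wisp1, a secreted protein gene expressed in bone and in injured tissue, rose less. Wisp1 stood at 48.4, 79.6, 64.5, 70.4 and 44.6 CPM in TAC replicates 1 to 5, against 33.03, 17.8, 34.7, 20.9 and 17.6 CPM in Sham replicates 1 to 5. All TAC libraries lay above all Sham libraries, although TAC replicate 5 and Sham replicate 3 were close. The log2 fold change was 1.31 (SE 0.24, edgeR adjusted p = 0.00070), a fold of 2.48 with a 95% interval of 1.73 to 3.55. Wisp1 is at chromosome 15, 66891320 to 66923201 (plus strand).

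Nov, first found as a gene overexpressed in nephroblastoma and known to antagonise growth in several cell types, lies on the same chromosome at 54745702 to 54754039 (plus strand). Nov stood at 8.65, 39.1, 13.1, 21.9 and 20.3 CPM in TAC replicates 1 to 5, against 3.66, 4.73, 2.40, 6.91 and 8.03 CPM in Sham replicates 1 to 5. The gap between the lowest TAC and the highest Sham library was small, and the TAC libraries themselves spread 4.52-fold. The log2 fold change was 1.99 (SE 0.43, edgeR adjusted p = 0.0022), a fold of 3.98 with a 95% interval of 2.07 to 7.65. Nov was the least abundant tested member, with 59 to 268 counts per Sham library. TAC replicate 2, which was highest for Nov, was also the highest TAC library for Wisp2, Wisp1 and Ctgf. Its summed fibroblast markers (13470 CPM, of which the collagen gene Col3a1 gave 4987 CPM) were the highest of the 10 libraries. Without TAC replicate 2 the log2 fold change of Nov was 1.65 (edgeR adjusted p = 0.0042).

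Ctgf, the connective tissue growth factor gene and a common readout of TGF-beta signalling in heart tissue, did not pass the test. Ctgf stood at 1248, 1995, 1250.2, 1337 and 1009 CPM in TAC replicates 1 to 5, against 1035, 2126, 1101, 1924 and 2176 CPM in Sham replicates 1 to 5. The groups overlapped over most of their range. The log2 fold change was -0.29 (SE 0.25, edgeR adjusted p = 0.34), and the 95% interval of the fold ran from 0.561 to 1.19. An increase above 1.19-fold therefore lies outside the interval under TMM scaling, whereas a fall to about 0.561 of Sham does not. When counts were scaled by library size alone, the log2 fold change of Ctgf changed sign (0.08, edgeR adjusted p = 0.78), while the median of all tested genes moved to 0.37 under that scaling. Ctgf lies on chromosome 10, 24595442 to 24598683 (plus strand), and 23.2% of its exonic bases are shared with the antisense gene Gm15270, to which 85 counts were assigned over the TAC and 103 over the Sham libraries. The strand setting of the counting is not given in the sources used here, so reads of the shared bases may have been left out as ambiguous.

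Among the Sham libraries, Ctgf and Wisp1 were opposed. Sham replicates 1 and 3 had the 2 lowest Ctgf levels and the 2 highest Wisp1 levels, while replicates 2, 4 and 5 had Ctgf at 1924 to 2176 CPM and Wisp1 at 17.6 to 20.9 CPM. No such opposition appeared in the TAC libraries, where replicate 2 was highest for both genes. Myh11, the smooth muscle myosin heavy chain gene, was also lowest in Sham replicates 1 and 3, at 17.8 and 17.5 CPM, against 27.2 to 31.1 CPM in the other Sham libraries. The summed smooth muscle and pericyte markers did not follow this order, at 409 and 516 CPM in Sham replicates 1 and 3 and 456 to 522 CPM in the other Sham libraries. That sum is weighted to 1 gene, Rgs5, which averaged 240 CPM in Sham against 24.3 CPM for Myh11. It was not split into smooth muscle and pericyte genes, and the part of smooth muscle in the Ctgf levels was not tested. Between TAC and Sham Myh11 was not called (log2 fold change -0.09, SE 0.17). With 5 libraries a group no correlation was tested.

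Cyr61, an angiogenic integrin ligand and the most rapidly inducible member, was the one member that fell. Cyr61 stood at 136, 132, 107, 132 and 143 CPM in TAC replicates 1 to 5, against 210, 578, 238, 320 and 268 CPM in Sham replicates 1 to 5. Every TAC library lay below every Sham library, and the TAC libraries varied little, with a coefficient of variation of 10.6% in TAC against 46.0% in Sham. The log2 fold change was -1.31 (SE 0.25, edgeR adjusted p = 0.00088), so that Cyr61 in TAC was at 40.3% of its Sham level (a fold of 0.403, 95% interval 0.277 to 0.585). Sham replicate 2 was highest, and it was also highest of the 10 libraries for the summed adipocyte markers, at 75.9 CPM, against 22.6 to 47.6 CPM in the other Sham libraries. The part of fat tissue in the Cyr61 level was not tested. Without that library the log2 fold change was -0.9995 (edgeR adjusted p = 0.00013). Scaled by library size alone it was -0.96 (edgeR adjusted p = 0.0062).

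The Cyr61 promoter is shown because 2 of its known inputs, TEAD factors and factors of the immediate early response, are described further on. Cyr61 was the 1 member of the 5 with an entry in the RefSeq promoter table. The 250 bases before its RefSeq start site (GRCm38.p6, chr3:145649986-145650235, minus strand, 5′ to 3′ along the gene) are printed with matches to the searched motifs in capitals.
Cyr61 promoter: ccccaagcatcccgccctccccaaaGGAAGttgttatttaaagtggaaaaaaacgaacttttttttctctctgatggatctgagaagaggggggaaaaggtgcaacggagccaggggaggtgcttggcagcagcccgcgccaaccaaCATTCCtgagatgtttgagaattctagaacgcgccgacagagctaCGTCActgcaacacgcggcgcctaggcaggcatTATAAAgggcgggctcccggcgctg
The TEAD motif CATTCC was found at -103 to -98 from the start site, and 12.6% of the 27025 promoter windows of the same length hold it on either strand. The cyclic AMP response element half-site TGACG was found on the opposite strand at -58 to -54 (17.9% of windows), the TATA motif TATAAA at -25 to -20 (12.97%), and the ETS core GGAAG at -225 to -221 (63.6%). The AP-1 motif TGANTCA (6.87% of windows), the SMAD motif CAGAC (42.1%), the TCF and LEF motif CTTTGA (14.1%) and the CArG box bound by serum response factor (1.40%) had no match in this window. Both strands were searched for all 8 motifs and the matches do not overlap. A match is a run of letters and was not tested for binding.

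Scaled to exonic length, Wisp2 took a larger share of the family in TAC, and Cyr61 and, on average, Ctgf took smaller ones. Wisp2 made up 20.7% ± 4.02 of the summed CPM per kb of the 5 genes in TAC and 0.684% ± 0.295 in Sham (SD, n = 5). Cyr61 made up 9.51% ± 2.55 in TAC and 21.2% ± 4.81 in Sham. Ctgf remained the major transcript, with 67.2% ± 3.66 in TAC and 77.2% ± 4.85 in Sham. The ranges of its share overlapped (63.6% to 73.0% in TAC, 71.6% to 84.2% in Sham). A share also falls when another member rises, and the Ctgf level itself was not called. The summed level was 710 ± 186 CPM per kb in TAC and 755 ± 247 in Sham, so ranges of the total overlapped (554 to 1023 in TAC, 477 to 1037 in Sham). In CPM per kb the order in TAC was Ctgf (478 ± 130), Wisp2 (149.6 ± 56.7), Cyr61 (64.3 ± 6.82), Wisp1 (11.05 ± 2.65) and Nov (7.19 ± 4.07), and this order held in each of the 5 TAC libraries. In Sham the order was Ctgf (584 ± 196), Cyr61 (159.9 ± 73.5), Wisp2 (4.67 ± 1.55), Wisp1 (4.45 ± 1.51) and Nov (1.79 ± 0.805). Wisp2 and Wisp1 were not separated there, since Wisp2 was the higher of both in 2 of 5 Sham libraries. A sixth family gene, Wisp3 (Ccn6), was near absent, with 13 counts over the TAC and 4 over the Sham libraries, and was not tested.

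**Figure D2:**
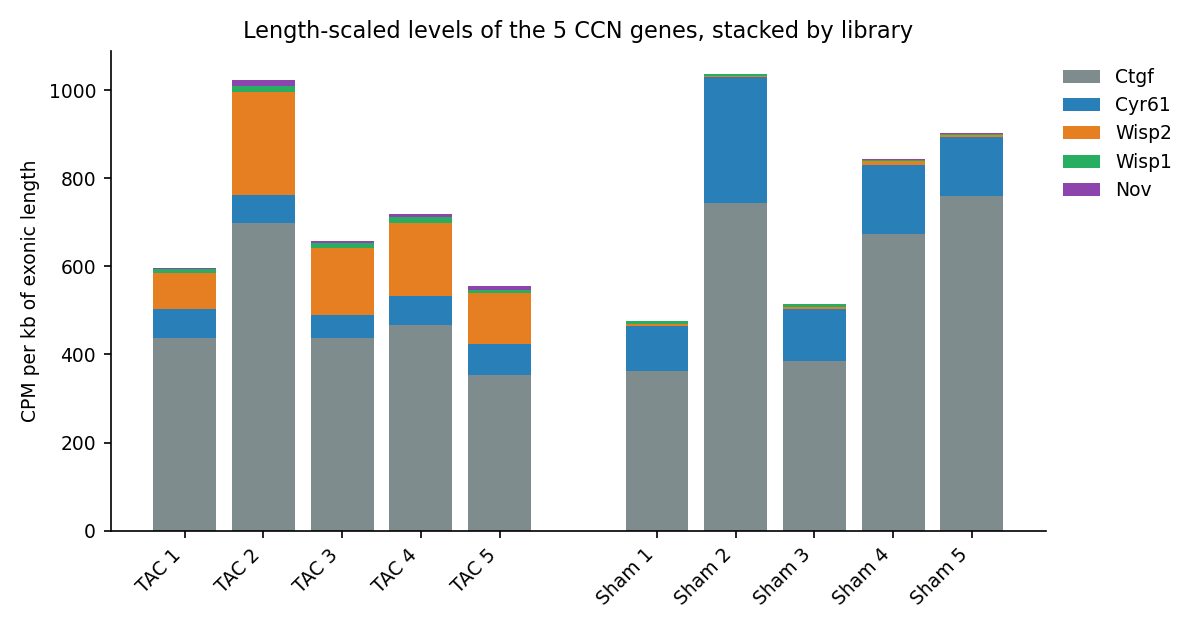
Length-scaled level (CPM per kb of exonic length, linear axis from 0) of the 5 CCN genes, stacked for each TAC and Sham library. Wisp2 takes a visible part of every TAC bar and almost none of the Sham bars, and Cyr61 takes a larger part of the Sham bars.

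Whether members responded differently was tested on the log2 ratio of their counts within each library, which does not depend on scaling between libraries. For each of the 10 pairs an exact permutation test (two-sided, all regroupings of the libraries) was run, with p adjusted over the 10 pairs, and 9 passed. The 10 ratios come from 5 genes, so these tests are not independent. How often pairs of other genes would pass was not tested. As 56.8% of all tested genes were called between TAC and Sham, the number of pairs that passed is not read as a trait of the family. The ratio of Wisp2 to Cyr61 averaged 1.07 ± 0.631 in TAC and -5.12 ± 0.843 in Sham on the log2 scale, a difference of 6.19 (exact p = 0.0079, the smallest possible, adjusted p = 0.0099). The ratio of Wisp2 to Ctgf averaged -2.30 ± 0.389 in TAC and -7.52 ± 0.737 in Sham (difference 5.22, exact p = 0.0079, adjusted p = 0.0099). Wisp2 also moved further than the other 2 genes that rose, by 3.03 relative to Nov and by 3.63 relative to Wisp1 (exact p = 0.0079 and adjusted p = 0.0099 for each).

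The rapidly inducible pair, Ctgf and Cyr61, also parted. The log2 ratio of Ctgf to Cyr61 averaged 3.37 ± 0.408 in TAC and 2.40 ± 0.430 in Sham, a difference of 0.97 (exact p = 0.016, adjusted p = 0.018), although the ranges of the groups overlapped (2.82 to 3.92 in TAC, 1.88 to 3.02 in Sham). Nov and Wisp1 were the pair whose responses were not separated by the test. Their log2 ratio averaged -1.72 ± 0.662 in TAC and -2.33 ± 1.14 in Sham, a difference of 0.60 (exact p = 0.34, adjusted p = 0.34) that ran from 0.22 to 0.90 when single libraries were left out. That p does not show that the responses of Nov and Wisp1 were alike.

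**Figure D3:**
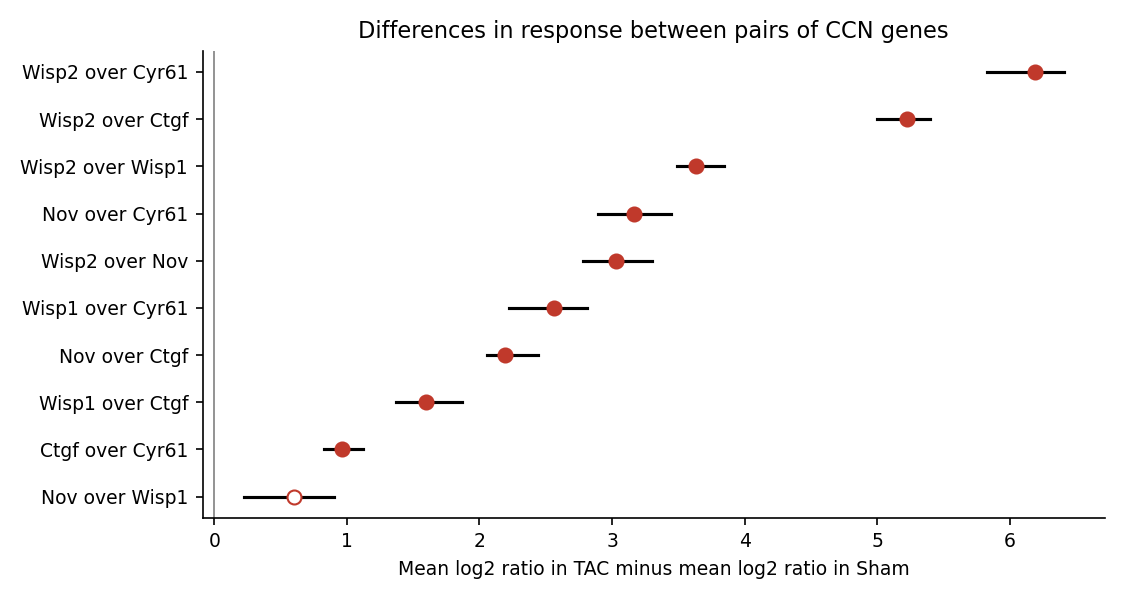
Difference between TAC and Sham in the mean log2 count ratio of each pair of CCN genes; filled points passed the exact permutation test adjusted over 10 pairs, and lines give the range when each library is left out in turn. The difference is largest for Wisp2 over Cyr61 (6.19), and Nov over Wisp1 (0.60) is the pair that did not pass.

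Transcriptional effectors through which CCN genes are known to be induced moved in both directions under TMM scaling. Of 14 transcriptional effectors 6 rose, 3 fell and 5 were not called (median log2 fold change 0.07, against 0.01 over all tested genes). Over all tested genes 28.9% were called higher and 27.9% lower, which is the background for the counts of this and each further list. Wwtr1, which encodes TAZ, averaged 194 ± 5.56 CPM in TAC and 126.1 ± 7.52 CPM in Sham (log2 fold change 0.62, SE 0.06), and Smad2, a TGF-beta signal transducer, rose by 0.43 (SE 0.07). Srf, which encodes serum response factor, fell to 146 ± 19.4 CPM in TAC, against 270 ± 44.0 CPM in Sham (-0.88, SE 0.12).

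Lists of genes that share inducers with the CCN family were described by inducer. Among 19 tested genes of a YAP and TAZ target signature, with Cyr61 and Ctgf left out, 7 rose, 2 fell and 10 were not called (median 0.14). Igfbp3, an insulin-like growth factor binding protein gene, rose by 1.82 (SE 0.19) and Myof, which encodes the membrane repair protein myoferlin, by 1.32 (SE 0.19). F3, which encodes tissue factor, was at -1.56 (SE 0.17). Among 15 TGF-beta and SMAD response genes 13 rose and 0 fell (median 2.00). Ltbp2, a latent TGF-beta binding protein family gene, rose to 186 ± 109 CPM in TAC, against 3.44 ± 0.971 CPM in Sham (log2 fold change 5.73, SE 0.41), and Loxl2, a collagen cross-linking enzyme gene, rose by 3.61 (SE 0.26). Of the TGF-beta and SMAD response genes, Col1a1, Col1a2 and Col3a1 are also among the fibroblast markers. Tagln and Acta2 are also smooth muscle and pericyte markers, and Fn1 is also among the binding partner genes. Other lists share genes as well, such as Dcn between binding partners and fibroblast markers, so counts from different lists are not independent.

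Immediate early genes, a class to which Cyr61 is often assigned, were lower. Of 15 such genes 14 fell and 0 rose (median -2.01). The nuclear receptor gene Nr4a1 averaged 24.6 ± 3.75 CPM in TAC and 213 ± 68.8 CPM in Sham (log2 fold change -3.12, SE 0.22), the AP-1 component gene Jun was at -2.12 (SE 0.18) and the antiproliferative gene Btg2 at -2.01 (SE 0.17). Of 9 tested WNT and beta-catenin target genes 3 rose and 3 fell (median -0.13). These counts are near the shares over all tested genes (28.9% up, 27.9% down), so they are not read as a result about WNT targets. Axin2, a feedback inhibitor and standard readout of the pathway, fell to 3.95 ± 0.592 CPM in TAC, against 10.52 ± 3.46 CPM in Sham (-1.41, SE 0.21), whereas Nkd2, another antagonist gene, rose by 2.97 (SE 0.32) and the transcription factor gene Sp5 by 4.23 (SE 0.47) from a Sham level of 0.0505 CPM.

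Receptors and partners of CCN proteins were mostly higher. Of 13 receptor and co-receptor genes 8 rose and 0 fell (median 0.68). Itgb5, an integrin beta chain that pairs with the alpha V chain, averaged 363 ± 124 CPM in TAC and 114 ± 6.997 CPM in Sham (log2 fold change 1.67, SE 0.20). The laminin-binding chain gene Itga6 rose by 1.40 (SE 0.20) and the leukocyte chain gene Itgam by 1.93 (SE 0.24), the last beside the rise of all 9 macrophage markers. Of 10 binding partner genes 7 rose and 1 fell (median 0.70). Bgn, the proteoglycan biglycan, rose by 2.07 (SE 0.19), Bmp4, a growth factor gene, by 2.15 (SE 0.20) and Fn1, which encodes fibronectin, by 2.60 (SE 0.28), while Dcn, the proteoglycan decorin, was at -0.40 (SE 0.12). Scaled by library size alone, 7 of the effector genes rose and 1 fell with a median of 0.44, 12 genes of the YAP and TAZ signature rose and 1 fell, 4 WNT target genes rose and 2 fell with a median of 0.23, and the effector gene Tead1 changed sign (-0.27 with TMM, 0.10 with library size).

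**Figure D4:**
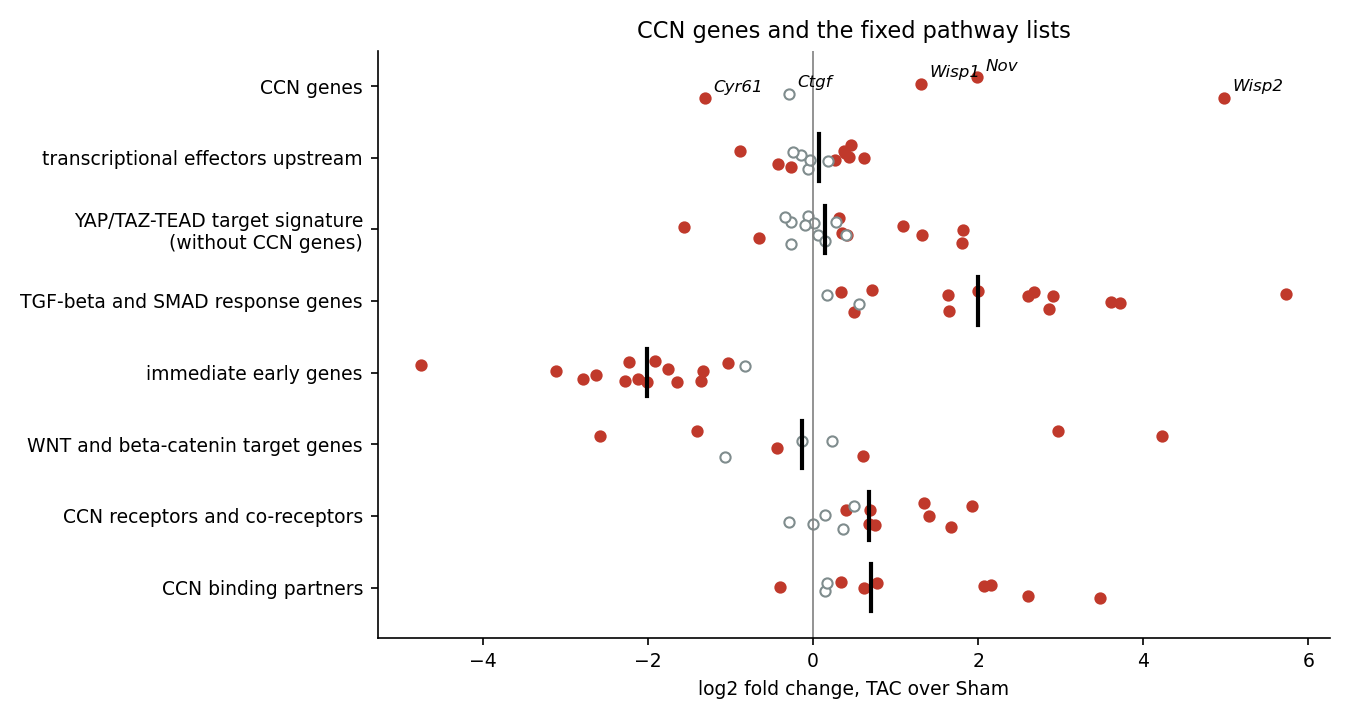
Log2 fold change (TAC over Sham) of the 5 CCN genes and of every tested gene in the 7 pathway lists; filled points passed the edgeR test at an adjusted p under 0.05, open points did not, and black bars mark list medians. Wisp2, Nov and Wisp1 lie above 0, and Cyr61 and Ctgf (-0.29, not called) lie below 0. List medians run from -2.01 for the immediate early genes to 2.00 for the TGF-beta and SMAD response genes.

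The genes most like each member were ranked by Pearson's r of log2 CPM over the 10 libraries. For every member but Ctgf, whose groups overlapped, this description largely reflects the difference between the groups. For Cyr61 they were Ier2 (r = 0.969), Egr1 (0.964) and Egr3 (0.962), all in the immediate early list. In Sham replicate 2, the library highest for Cyr61, Egr1 stood at 575 CPM and Ier2 at 137 CPM, against 139 to 216 and 38.0 to 43.9 CPM in the other Sham libraries. Summed immediate early genes were also highest there, at 3025 CPM. For Wisp2 the 3 were the potassium channel subunit gene Kcne4 (r = 0.996), the centrosomal gene Cep192 (0.996) and the protease gene Adamts12 (0.995). For Ctgf they were Myh11 (r = 0.905), Ggt7 (0.896) and Slc6a9 (0.893), none of which was called. For Nov they were Pag1, Spire1 and Glis2 (each r = 0.978), and for Wisp1 Zfp605 (0.992), Arhgef7 (0.982) and Crlf2 (0.979).

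**Figure D5:**
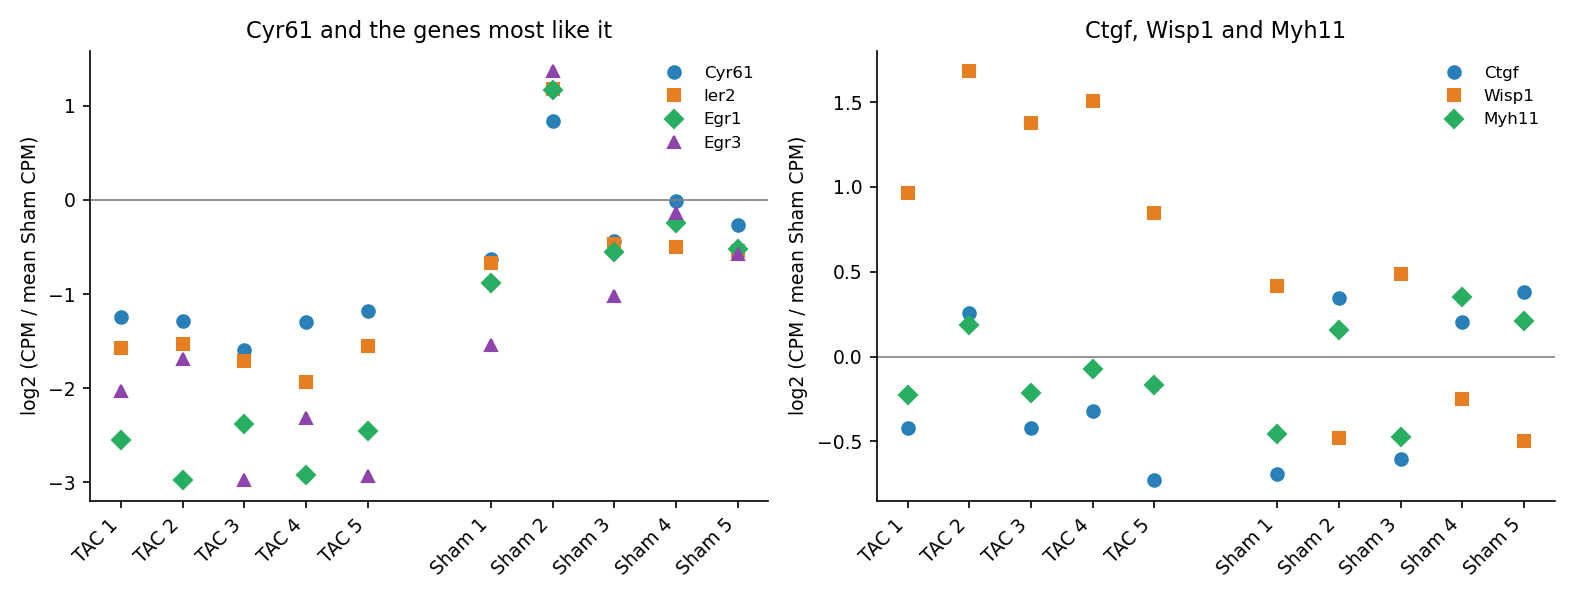
Level of each gene in each TAC and Sham library as log2 of its CPM over its mean Sham CPM; the left panel shows Cyr61 with Ier2, Egr1 and Egr3, and the right panel Ctgf, Wisp1 and Myh11. All 4 genes of the left panel peak in Sham replicate 2, and in the right panel Ctgf and Myh11 are low and Wisp1 high in Sham replicates 1 and 3.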

How the data were processed

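Bulk RNA sequencing libraries of the left atrium were grouped by their titles. The authors deposited 1 table of raw counts per gene symbol for each library, without normalization. Per the submitters' processing notes STAR, bcl2fastq and the build mm10 were used. How reads were counted, with which annotation and strand setting, is not given in the sources used here. Per the labels' protocols RNA was amplified with a low-input kit, whereas the design text names another kit. The 5 closing tallies of each table stayed out of library sizes and tests. The tallies of reads with no feature, ambiguous, not unique or not aligned together made up 25.9% to 29.2% of reads in TAC and 25.9% to 28.9% in Sham. Reads ambiguous between genes were 5.34% to 6.09% in TAC and 3.85% to 4.48% in Sham.

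Counts were tested across all genes with edgeR 4.0.16 in R 4.3.3 (TMM, filterByExpr, robust quasi-likelihood F test, no term besides group). The filter kept 15175 genes, and p-values were adjusted over all of them. The SE is the log2 fold change divided by the square root of F. Exonic lengths and coordinates came from GENCODE M21 (GRCm38), and promoters from RefSeq (GRCm38.p6). Pair ratios had 0.5 added to counts and were tested with scipy 1.17.1. Genes named besides the members were up to 3 called genes of each list with the smallest adjusted p, the leading gene of the rarer direction, and the 3 genes most like each member. Tead1 falls outside this rule and was named after its values were seen, for its change of sign. Col1a1 and Acta2 also fall outside it and were named as genes shared between lists. The members and lists were chosen with earlier results of these data known. The scripts were tested on simulated data. Intervals cover the spread between libraries, and the sequencing depth per library is given with the results. Alternatives were other scalings and filters, DESeq2 1.42.0, limma 3.58.1 (voom), a block for replicate number, mitochondrially encoded genes removed, and libraries left out.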

Additional observations from a re-analysis of the deposited data

Results flagged for a closer look

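Of 42 sets of 5 libraries checked for a library far from the others (levels, family shares, the family total and pair ratios in each group), 2 held one by Dixon's test, near the 1 in 20 that chance gives. Both are TAC replicate 1 and both rest on the same counts. Wisp2 made up 13.7% of the family's length-scaled level there, against 20.9% to 23.1% in the other TAC libraries, and its log2 ratio of Wisp2 to Ctgf was -2.99. Summed fibroblast markers were lowest of the TAC libraries in replicate 1 (6998 CPM, of which Col3a1 gave 2264 CPM), and cardiomyocyte markers were highest (49967 CPM). The part of these in the lower Wisp2 was not tested. Without TAC replicate 1 the log2 fold change of Wisp2 was 5.16 (edgeR adjusted p = 9.9e-07).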

How the results depend on the processing

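The calls of Wisp2, Nov, Wisp1 and Cyr61 kept their direction and side of the threshold in all 20 alternatives run for each. Their log2 fold changes ranged from 4.79 to 5.36, 1.65 to 2.38, 1.20 to 1.67 and -1.44 to -0.96, in that order. Ctgf was not called in any of its 20 alternatives (edgeR, DESeq2 or limma adjusted p from 0.13 to 0.78), and its sign turned when counts were scaled by library size alone (0.079). That scaling called 7741 genes up and 1929 down, with increases making up 80.1% of calls against 50.9% under TMM, and moved the median of all genes from 0.01 to 0.37. The 10 pair differences kept direction and side in all 12 alternatives each. Without scaling to length, Ctgf took 73.1% of the family in TAC, Wisp2 took 15.2% in TAC, Wisp1 took 3.31% in TAC and 1.47% in Sham, and Cyr61 took 15.9% in Sham, because the genes differ in length. No pairing of the libraries by replicate number was seen. Same-numbered libraries' deviations correlated at -0.04 to 0.08, and 0 of 5 TAC libraries correlated best with their own number. Such correlations cannot exclude a pairing, and no label gives one. With the replicate number as a block, 4103 genes were higher and 3917 lower, and no member's call changed (Wisp2 4.95, Nov 1.93, Wisp1 1.34, Cyr61 -1.22, Ctgf -0.25). Wisp3 had at most 8 counts in a library, too few to be tested. As 34% of its exonic bases are shared with the antisense gene Tube1, reads there may also have been left out as ambiguous.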

Other observations

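By deviations from the group means, which leave out the difference between TAC and Sham, other genes followed the members over the 10 libraries. For Wisp2 they were the purinergic receptor genes P2rx7 (r = 0.970) and P2ry6 (0.969) and the adaptor gene Blnk (0.961). P2rx7 averaged 15.7 CPM in TAC and 7.72 CPM in Sham (log2 fold change 1.01, SE 0.17), and P2ry6 averaged 15.4 CPM in TAC and 6.07 CPM in Sham (1.34, SE 0.22). For Cyr61 they were the lipid synthesis genes Acaca (r = 0.939) and Scd1 (0.930), with Scd1 at 49.9 CPM in TAC and 172 CPM in Sham, and Ccdc174 (0.916). Summed adipocyte markers were 0.523 to 19.1 CPM in TAC and 22.6 to 75.9 CPM in Sham, highest in Sham replicate 2, where Cyr61 was highest too. Their part in these correlations was not tested. For Ctgf they were Uvrag (r = 0.943), Sec24d (0.927) and again Myh11 (0.920), none of which was called. Glis2, Zfp605 and Arhgef7 were picked by both measures, the first for Nov and the others for Wisp1. These are the highest values among all genes compared and carry no test.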
